A study of Mus musculus with 12 samples.

Results

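The St6galnac locus is a stretch of mouse chromosome 11 with 9 listed neighbouring genes, followed here in bone-marrow-derived dendritic cells. They are Rhbdf2, Cygb, Gm11744, 1810032O08Rik, St6galnac2, Gm11735, BC018473, St6galnac1 and Mxra7, in chromosome order, out of 37991 genes in the deposited count table. All 9 passed the filter on low counts, as did 18981 genes in all. The genes were chosen by name and position with the measured difference between the genotypes in these libraries, with and without curdlan, already known, so that difference is given below as a description without a test. Responses to curdlan within a genotype were tested.

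RNA was sequenced from cells grown from the bone marrow of C57BL/6 mice, in 12 libraries of 4 groups with 3 libraries each. The first group carried the label Vav1/2/3-/- (KO), for mice lacking the signalling adaptors Vav1, Vav2 and Vav3, and was exposed to curdlan, and the second was wild type (WT) and exposed to curdlan. The third was labelled KO and left unstimulated, and the fourth was WT and left unstimulated. Curdlan is a particulate beta-glucan recognised by the receptor Dectin-1, and exposure lasted 3 hours at a dose the labels write as 200 mg/ml. Libraries are named by the numbers in their names, which are 2, 4 and 5 for KO with curdlan, 1, 2 and 4 for WT with curdlan, 1, 2 and 5 for unstimulated KO and 1, 2 and 4 for unstimulated WT. The labels do not say whether these are separate animals or cultures, so p-values here rest on the spread among libraries and that spread may be technical.

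St6galnac1 and St6galnac2 encode Golgi sialyltransferases that attach sialic acid through an alpha-2,6 linkage to the N-acetylgalactosamine at the base of mucin-type O-glycans. St6galnac1 makes the sialyl-Tn antigen, while St6galnac2 prefers O-glycans already extended with galactose. Capping of this kind masks the underlying sugars and creates ligands for sialic-acid-binding Siglec receptors on leukocytes. Rhbdf2, at the edge of the locus, encodes iRhom2, an inactive rhomboid protein that carries the protease ADAM17 through the secretory pathway and so permits release of TNF from myeloid cells.

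In GENCODE mouse release M21 (GRCm38) the genes span chromosome 11 from position 116598165, the lower end of Rhbdf2, to 116828046, the upper end of Mxra7. St6galnac2 (ENSMUSG00000057286, minus strand) lies at 116675303 to 116694868 and St6galnac1 (ENSMUSG00000009588, minus strand) at 116765025 to 116775507, both protein-coding with 9 exon blocks. Between them lie Gm11735 (ENSMUSG00000078586, minus strand, 116739062 to 116749833), annotated as an unprocessed pseudogene, and BC018473 (ENSMUSG00000056032, plus strand, 116752167 to 116759373), annotated as an antisense noncoding gene. Below St6galnac2 lie 1810032O08Rik (ENSMUSG00000020812, plus strand, 116671660 to 116675799), a noncoding processed transcript, Gm11744 (ENSMUSG00000075410, plus strand, 116653534 to 116668389), which the release names Prcd, and Cygb (ENSMUSG00000020810, minus strand, 116645595 to 116654313). Rhbdf2 (ENSMUSG00000020806, minus strand, 116598165 to 116627019) and Mxra7 (ENSMUSG00000020814, minus strand, 116803062 to 116828046) form the edges. The exons of 1810032O08Rik and St6galnac2 overlap on opposite strands over 497 bp and those of Cygb and Gm11744 over 201 bp, and the library kit does not mark strand, so reads in these overlaps cannot be assigned to 1 gene. The release lists 4 further entries inside the span, of which the small nucleolar RNA genes Snord1a, Snord1b and Snord1c, inside 1810032O08Rik, had 0 counts in all libraries, and a second St6galnac2 identifier had no row in the count table.

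Gm11735 is a near copy of St6galnac1, which bears on how reads of the pair can be told apart. The GENCODE transcript Gm11735-201 (1581 bases) aligned without gaps to bases 106 to 1686 of St6galnac1-201 (2392 bases), which are exactly its coding part, with 32 differing bases and 98% identity. Of all windows of 50 bases in Gm11735-201, 53.4% were identical in both transcripts, and of windows of 100 bases 35.6% were. The following 150 bases, which run over more than 1 exon, hold 12 of the differences. They are bases 175 to 324 of St6galnac1-201 and bases 70 to 219 of Gm11735-201 on chromosome 11, 5′ to 3′ on the transcript strand, and capitals mark the bases that differ.
St6galnac1: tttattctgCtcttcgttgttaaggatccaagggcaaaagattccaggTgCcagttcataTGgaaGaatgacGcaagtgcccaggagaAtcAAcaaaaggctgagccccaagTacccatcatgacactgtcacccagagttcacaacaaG
Gm11735: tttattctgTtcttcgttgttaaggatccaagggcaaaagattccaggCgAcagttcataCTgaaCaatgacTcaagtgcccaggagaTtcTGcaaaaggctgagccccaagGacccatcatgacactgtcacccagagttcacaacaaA
The sources used here do not say how reads that match both genes were counted, so the split of counts between St6galnac1 and Gm11735 is uncertain. Per kilobase of exon, the ratio of Gm11735 to St6galnac1 ran from 0.542 to 0.651 in WT libraries with curdlan and from 0.583 to 0.742 in unstimulated WT libraries.

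Library totals ran from 41421718 to 61217861 counts. The 4 groups were run in 4 different lanes (8, 7, 6 and 5 in the order given above), and lane cannot be told apart from group. None of the targeted genes was lower in both states in the libraries labelled KO. Vav1 ran from 198 to 330 CPM (counts scaled to a common depth) there, against 131 to 179 CPM in WT, Vav2 from 265 to 325 against 65 to 72.7 CPM, and Vav3 from 22.7 to 40 against 21.6 to 36.9 CPM. All statements about KO below therefore concern the libraries labelled KO. All 12 dendritic cell markers examined, Itgax, Flt3 and Zbtb46 among them, reached 1 CPM in every group. Their summed level was 17590 to 22871 CPM in KO and 10240 to 10633 CPM in WT with curdlan, and 16311 to 20601 CPM in KO and 10033 to 10240 CPM in WT unstimulated. The sum was made up mostly of the antigen presentation genes Cd74, H2-Aa and H2-Ab1, and the markers went both ways, with mean levels higher in KO in both states for 6 and lower in both for 5 (Itgax, Zbtb46, Batf3, Irf4 and Ccr7). Mean levels of Itgax were 945 CPM in KO and 1336 CPM in WT with curdlan, those of Zbtb46 47.1 and 71.3 CPM, and those of Ccr7 109 and 278 CPM. Macrophage markers (9 of 9 at 1 CPM or more) summed to 4716 to 5607 CPM in KO and 1086 to 1253 CPM in WT with curdlan, and to 4737 to 5846 CPM in KO and 1190 to 1265 CPM in WT unstimulated. Neutrophil markers (9 of 9) summed to 6081 to 9581 CPM in KO and 3928 to 4611 CPM in WT with curdlan, and to 6560 to 10334 CPM in KO and 4592 to 5842 CPM in WT unstimulated. The part of these marker differences in the results below was not tested, and in bulk RNA fewer cells of a type and less RNA per cell cannot be told apart.

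St6galnac2 transcripts were close to the counting floor in every library labelled KO and far above it in every WT library. The libraries labelled KO with curdlan held 2, 0 and 2 counts (0.0438, 0 and 0.0537 CPM), against 1598, 1545 and 1669 counts (31.2, 32 and 32 CPM) in WT libraries with curdlan. Unstimulated libraries labelled KO held 6, 3 and 2 counts (0.119, 0.0722 and 0.0366 CPM), against 3278, 2769 and 2563 counts (46.8, 46.1 and 44.3 CPM) in unstimulated WT libraries. No library labelled KO came near any WT library in either state. On summed counts the level in KO was 944-fold lower with curdlan (95% interval 369 to 3467, exact, for counting error only) and 610-fold lower unstimulated (341 to 1222).

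St6galnac1 showed the same separation at a lower level in WT. Libraries labelled KO held 2, 1 and 2 counts with curdlan (0.0438, 0.0277 and 0.0537 CPM), and the WT libraries 480, 493 and 684 counts (9.37, 10.2 and 13.1 CPM). Unstimulated, the libraries labelled KO held 6, 6 and 2 counts (0.119, 0.144 and 0.0366 CPM), and the WT libraries 506, 480 and 513 counts (7.22, 8 and 8.86 CPM). The groups did not overlap, and the level in KO was 260-fold lower with curdlan (interval 111 to 802) and 83.4-fold lower unstimulated (49.6 to 153). Epithelial cells are a known site of St6galnac1 expression. Of 8 epithelial markers, 2 reached 1 CPM in each group, Epcam and Cdh1, and mean levels of both were higher in KO in both states. In all, mean levels were higher in KO in both states for 4 of the 8 and lower in both for 3. Krt8, Krt19 and Cldn4 were at 0 in all libraries labelled KO, and their means in WT were at most 0.0264 CPM. The summed level was 46.2 to 114 CPM in KO and 46.5 to 50 CPM in WT with curdlan, and 48.5 to 129 CPM in KO and 65.1 to 70.2 CPM in WT unstimulated.

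The pseudogene Gm11735 had 0 counts in all 6 libraries labelled KO. WT libraries held 191, 212 and 245 counts with curdlan (3.73, 4.4 and 4.69 CPM) and 248, 185 and 200 counts unstimulated (3.54, 3.08 and 3.45 CPM). Taking 3 counts over the group as the floor, the level in KO was at least 170-fold lower with curdlan and at least 164-fold lower unstimulated.

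BC018473, the noncoding gene between the sialyltransferase genes, had the highest level per kilobase of exon of the locus in WT libraries and lay near 1 CPM in those labelled KO. Libraries labelled KO held 1.32, 1.05 and 1.45 CPM with curdlan, against 657, 629 and 715 CPM in WT. Unstimulated, they held 0.874, 0.722 and 1.03 CPM, against 321, 301 and 362 CPM in WT. With 152 against 101304 summed counts, the level in KO was 523-fold lower with curdlan (interval 446 to 617), and with 130 against 61494 counts it was 369-fold lower unstimulated (310 to 441). The fitted log2 fold change was -9.03 (SE 0.14) with curdlan and -8.53 (SE 0.14) unstimulated, and the authors' deposited table gives -8.79 (SE 0.15) with curdlan. For genes with fewer counts in KO, the values in the authors' deposited table were smaller in size than those fitted here, at -7.78 against -9.78 for St6galnac2, -6.25 against -7.94 for St6galnac1 and -1.26 against -1.87 for Gm11744 with curdlan, and the cause was not tested.

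Cygb encodes cytoglobin, an oxygen-binding haem protein best known from fibroblasts and other connective tissue cells. Its level was 0.395, 0.415 and 0.134 CPM in libraries labelled KO with curdlan, against 4.65, 4.96 and 4.2 CPM in WT, and 0.437, 0.674 and 0.293 CPM unstimulated, against 6.24, 5.68 and 6.15 CPM in WT. The highest library labelled KO stayed below the lowest WT library in both states, at log2 fold changes of -3.84 (SE 0.31) and -3.72 (SE 0.26). Markers of stromal cells and fibroblasts, of which 6 of 9 reached 1 CPM in each group, summed to 15.9 to 21.3 CPM in KO and 12.8 to 16.3 CPM in WT with curdlan, and to 16.9 to 28.5 CPM in KO and 13.7 to 16.1 CPM in WT unstimulated. Mean levels of 7 of the 9 were higher in KO in both states and those of 2 were lower, as Cygb was. The lower ones were Pdgfrb, at 1.04 CPM in KO and 3.94 CPM in WT with curdlan and 1.43 and 3.56 CPM unstimulated, and Postn, at 0.376 and 1.56 CPM with curdlan and 0.421 and 1.47 CPM unstimulated, and their part in the Cygb difference was not tested.

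The level of 1810032O08Rik was lower in libraries labelled KO, by less with curdlan than without. Values were 2.5, 2.71 and 3.14 CPM in KO with curdlan, against 6.35, 5.31 and 4.83 CPM in WT, and 3.4, 4.02 and 3.57 CPM in KO unstimulated, against 16.6, 14.3 and 13.3 CPM in WT. The groups did not overlap, and the fold was 1.99 lower in KO with curdlan (interval 1.75 to 2.26) and 4.07 lower unstimulated (3.71 to 4.47). Its exons overlap those of St6galnac2, which was also lower in KO, and the part of shared reads in this difference was not tested.

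Gm11744, named Prcd for a protein of photoreceptor discs, and Mxra7, a gene named for its association with matrix remodelling, were near the lower limit of detection. Gm11744 held 7, 0 and 4 counts in libraries labelled KO with curdlan (0.153, 0 and 0.107 CPM), against 20, 19 and 13 counts in WT (0.391, 0.394 and 0.249 CPM), and 4, 7 and 2 counts in KO unstimulated (0.0795, 0.169 and 0.0366 CPM), against 37, 38 and 42 counts in WT (0.528, 0.633 and 0.725 CPM). Mxra7 measured 0.767, 0.636 and 0.403 CPM in KO with curdlan, against 1.48, 1.22 and 0.939 CPM in WT, and 0.437, 0.626 and 0.348 CPM in KO unstimulated, against 1.77, 1.73 and 1.42 CPM in WT. For both genes the libraries labelled KO lay below the WT libraries in each state. Gm11744 was 3.71-fold lower with curdlan (interval 1.91 to 7.89) and 7.01-fold lower unstimulated (3.94 to 13.6), and Mxra7 was 1.98-fold (1.5 to 2.63) and 3.6-fold (2.76 to 4.77) lower. The fitted log2 fold change of Gm11744 was -1.87 with curdlan and -2.61 without library 2 of KO with curdlan, and -2.77 unstimulated and -3.40 without library 2 of unstimulated KO.

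Rhbdf2 went the other way. Its level was 454, 478 and 488 CPM in libraries labelled KO with curdlan, against 196, 186 and 217 CPM in WT, and 256, 259 and 269 CPM in KO unstimulated, against 121, 110 and 111 CPM in WT. All libraries labelled KO lay above all WT libraries of the same state, with log2 fold changes of 1.25 (SE 0.07) with curdlan and 1.20 (SE 0.07) unstimulated.

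**Figure D1:**
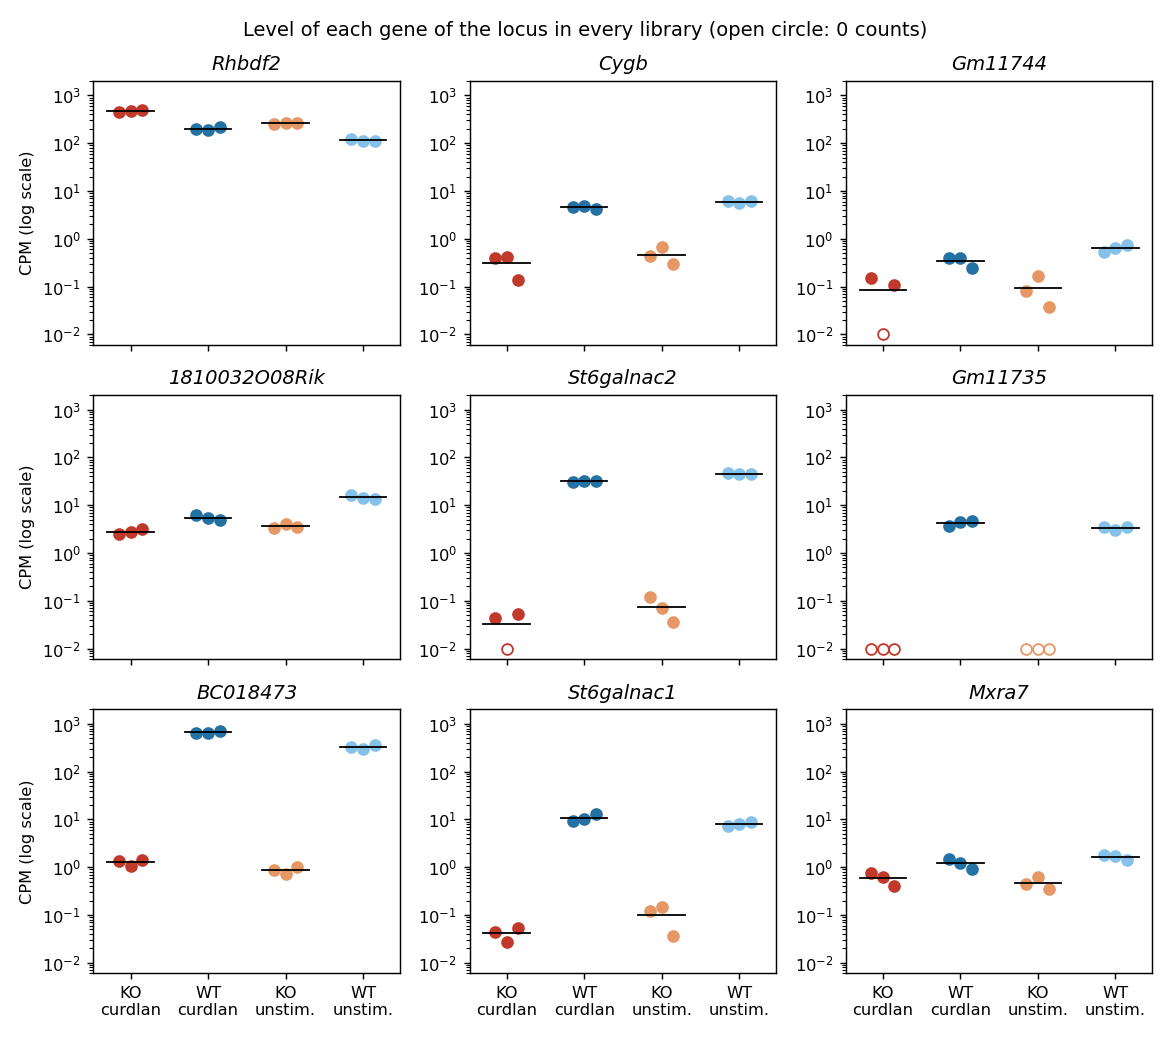
Level of each of the 9 genes in CPM on a log axis, in the libraries labelled KO and the WT libraries with curdlan, then in those left unstimulated. Points are libraries, black lines are group means, and open circles mark libraries with 0 counts, drawn at the foot of the axis. BC018473 sits between 301 and 715 CPM in WT and between 0.722 and 1.45 CPM in libraries labelled KO, while Rhbdf2 is higher in the libraries labelled KO.

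Levels were also ordered per kilobase of exon, which allows genes to be compared with each other. In unstimulated libraries labelled KO, Rhbdf2 led at 49.3 ± 1.3 CPM per kb (SD, n = 3), followed by 1810032O08Rik at 1.32 ± 0.12, and all values after ± are SD over 3 libraries. Cygb (0.201), Mxra7 (0.197) and BC018473 (0.16) came next, apart from 1810032O08Rik, and each overlapped the next of the 3. Gm11744, St6galnac1 and St6galnac2 stood at 0.0619, 0.0418 and 0.0131 CPM per kb, apart from BC018473 and each overlapping the next of these, and Gm11735 stood apart at 0. In unstimulated WT libraries the order began with BC018473 at 59.9 ± 5.7 CPM per kb, Rhbdf2 at 21.5 ± 1.1, St6galnac2 at 7.9 ± 0.22 and 1810032O08Rik at 5.29 ± 0.61. It went on with St6galnac1 at 3.36 ± 0.34, Cygb at 2.58 ± 0.13, Gm11735 at 2.12 ± 0.15, Mxra7 at 0.686 ± 0.081 and Gm11744 at 0.41 ± 0.064 CPM per kb, each neighbour in the order apart from the next. With curdlan, St6galnac1 at 4.56 ± 0.82 CPM per kb overlapped St6galnac2 at 5.48 ± 0.081 in WT libraries, Cygb at 1.97 ± 0.16 overlapped 1810032O08Rik at 1.98 ± 0.28, and BC018473 reached 122 ± 8.

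Along the chromosome, the 8 genes from Cygb to Mxra7 were lower in KO without overlap between libraries in both states, and Rhbdf2 was higher. Among all genes tested, 29.5% were lower without overlap with curdlan and 29.8% unstimulated, and 27.4% and 26.3% were higher. Since the genes were listed with this difference known, nothing is read from their count. The nearest tested genes outside the listed span were Aanat and Jmjd6. Aanat, which encodes an enzyme of melatonin synthesis and lies 485 bp beyond Rhbdf2, measured 0.42 ± 0.15 CPM in KO and 0.297 ± 0.09 CPM in WT with curdlan, a log2 fold change of 0.52 with an adjusted p of 0.203 (edgeR quasi-likelihood test with Benjamini-Hochberg adjustment over all genes, as for all adjusted p-values below). Unstimulated, Aanat measured 0.141 ± 0.022 CPM in KO and 0.0815 ± 0.034 CPM in WT (0.82, adjusted p = 0.179), the highest fitted value of the 20 tested genes on its side of the locus. Jmjd6, which encodes a hydroxylase of the JmjC family and lies 9386 bp beyond Mxra7, measured 83.3 ± 12 CPM in KO and 74.4 ± 2 CPM in WT with curdlan (log2 fold change 0.16, adjusted p = 0.185). Unstimulated it rose to 70.5 ± 6.2 CPM in KO, against 50.5 ± 2.5 CPM in WT (0.48, adjusted p = 0.00159).

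Of the 20 tested genes on each side of the locus, 21 of 40 passed the threshold (adjusted p under 0.05) between KO and WT with curdlan, 9 higher and 12 lower, and 23 of 40 unstimulated, 11 higher and 12 lower. These shares, 52.5% and 57.5%, compare with 51.4% and 44.4% of all genes tested. Median log2 fold changes were -0.06 and -0.14, against 0.01 and -0.01 over all genes. With library size as the scaling, which moves the median of all genes to -0.24 and -0.19, the splits were 5 higher and 17 lower with curdlan, and 5 higher and 18 lower unstimulated. The lowest neighbours with curdlan were Foxj1, a master regulator of motile cilia, at -2.41 (SE 0.29, adjusted p = 1.52e-05), and Rnf157, a ubiquitin ligase gene, at -2.16 (SE 0.16, adjusted p = 9.02e-07). The noncoding gene 2900041M22Rik fell by 1.51 (SE 0.47, adjusted p = 0.0121) and Ubald2 by 0.71 (SE 0.10, adjusted p = 0.000122) on the log2 scale. Tmc6 fell to 24.7 ± 8.7 CPM in KO, against 46.5 ± 3.9 CPM in WT with curdlan (adjusted p = 0.00175). The highest were Tha1, a threonine aldolase gene, at 1.55 (SE 0.24, adjusted p = 0.000219), and Sphk1, which encodes a sphingosine kinase, at 1.18 (SE 0.13, adjusted p = 1.28e-05). Afmid, an enzyme of kynurenine synthesis, passed unstimulated at 0.98 (SE 0.26, adjusted p = 0.00957). None of the 40 neighbours reached the fitted differences of St6galnac2, BC018473 or St6galnac1. Those were -9.78 (SE 0.57), -9.03 and -7.94 (SE 0.61) with curdlan and -9.20 (SE 0.35), -8.53 and -6.35 (SE 0.38) unstimulated. The listed genes were chosen with that difference known, so nothing is read from this gap.

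**Figure D2:**
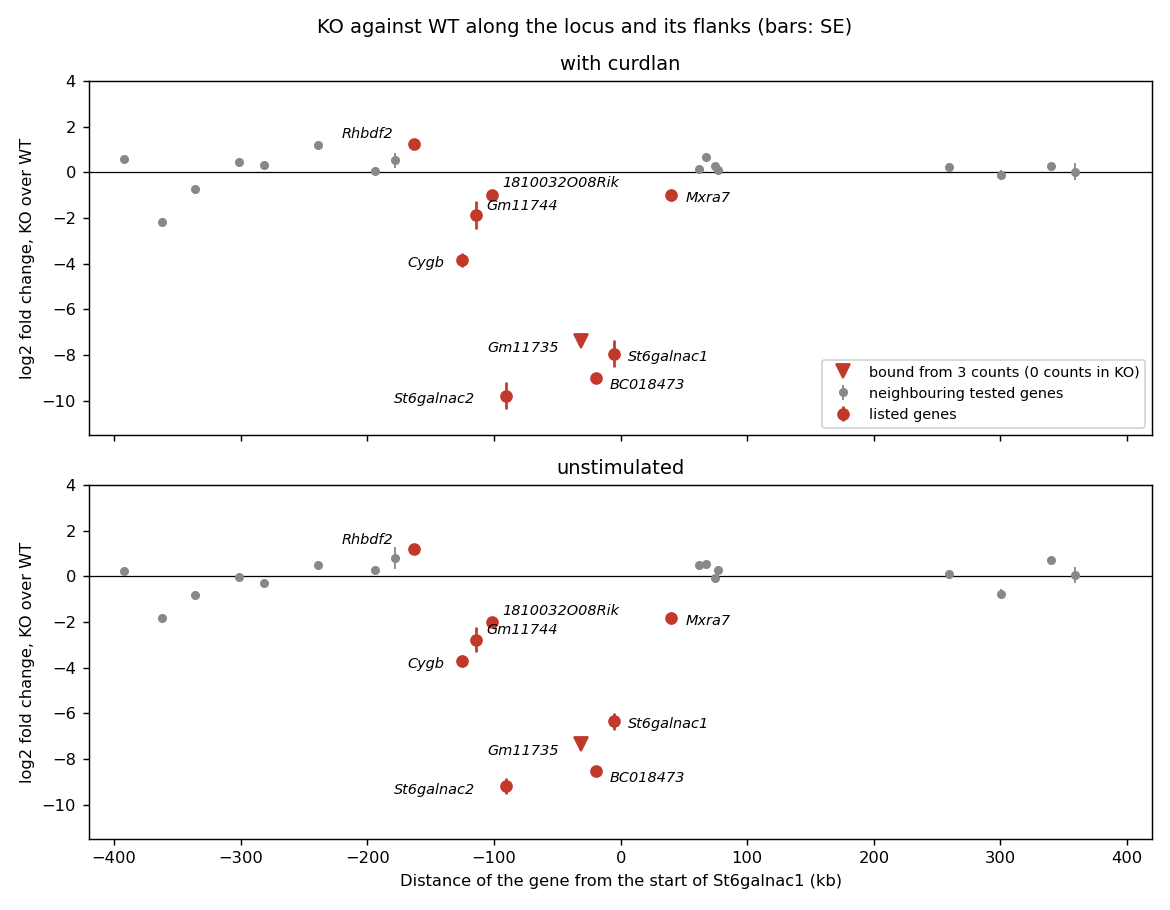
Fitted log2 fold change of KO over WT (vertical axis, bars are SE) against distance from the start of St6galnac1 in kb, with curdlan above and unstimulated below. Red points are the listed genes, the triangle is Gm11735 at the bound set by 3 counts, and grey points are the neighbouring tested genes nearest to them. The 4 lowest genes, St6galnac2, BC018473, Gm11735 and St6galnac1, lie between flanking genes with smaller differences, and the red genes were listed with the difference known.

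Curdlan changed 2 of the 9 genes in cells labelled KO and 4 in WT cells, against 28.6% and 19.8% of all genes tested. The library numbers were taken to pair the states within a genotype, from correlations given below. Values from a fit with the number as a replicate block are therefore given where the block changed a call. Among libraries labelled KO only numbers 2 and 5 occur in both states. For WT with curdlan the deposited tables disagree on the numbers. In cells labelled KO, Rhbdf2 rose to 473 ± 18 CPM with curdlan, against 261 ± 6.7 CPM unstimulated (0.86, SE 0.07, adjusted p = 1.06e-05). BC018473 passed at 1.27 ± 0.2 CPM with curdlan and 0.874 ± 0.15 CPM unstimulated (0.53, SE 0.17, adjusted p = 0.0341), and the call was lost without library 2 or 5 of KO with curdlan (adjusted p = 0.0791 and 0.139) or without library 1 or 2 of unstimulated KO (0.0903 and 0.105). The level of 1810032O08Rik was 2.78 ± 0.33 CPM with curdlan and 3.66 ± 0.32 CPM unstimulated (-0.40, SE 0.14, adjusted p = 0.0519), and it passed with the replicate block (-0.43, adjusted p = 0.0338), which called 3 of the 9 genes in KO, against 29.6% of all genes tested. For St6galnac1 and St6galnac2, with 5 and 4 summed counts with curdlan and 14 and 11 unstimulated, a curdlan response in KO was not detectable at this depth. Gm11735, with 0 counts in KO, has no value for a response there.

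In WT, BC018473 rose to 667 ± 44 CPM with curdlan, against 328 ± 31 CPM unstimulated (log2 fold change 1.02, SE 0.10, adjusted p = 2.85e-05), and Rhbdf2 rose to 199 ± 16 CPM, against 114 ± 6 CPM (0.81, SE 0.07, adjusted p = 1.35e-05). In WT, 1810032O08Rik fell to 5.49 ± 0.78 CPM with curdlan, against 14.7 ± 1.7 CPM unstimulated (-1.42, SE 0.12, adjusted p = 1.24e-05), and St6galnac2 fell to 31.7 ± 0.47 CPM, against 45.7 ± 1.3 CPM (-0.53, SE 0.10, adjusted p = 0.00395). The sialyltransferase genes thus differed in sign in WT, with St6galnac1 at 10.9 ± 2 CPM with curdlan and 8.03 ± 0.82 CPM unstimulated (0.44, SE 0.15, adjusted p = 0.0566), short of the threshold. Gm11735 measured 4.27 ± 0.49 CPM with curdlan and 3.36 ± 0.24 CPM unstimulated (0.35, SE 0.13, adjusted p = 0.11).

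With the replicate block in the fit, all 9 genes passed in WT, 4 higher and 5 lower, against 38.3% of all genes tested in that fit. These calls rest on the library numbers being true pairs, which the labels do not state. With the block St6galnac1 had a log2 fold change of 0.43 (adjusted p = 0.00136) and Gm11735 0.34 (adjusted p = 0.0337), while Cygb fell by 0.39 (adjusted p = 0.00621), Gm11744 by 0.86 (adjusted p = 0.0222) and Mxra7 by 0.43 (adjusted p = 0.0275).

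The response to curdlan differed between the genotypes for 1 of the 9 genes, against 5.21% of all genes tested. This was 1810032O08Rik, whose log2 change was 1.02 higher in KO than in WT (SE 0.19, adjusted p = 0.0115), and it passed without each library in turn. The differences were 0.05 (SE 0.10, adjusted p = 0.802) for Rhbdf2, -0.50 (SE 0.20, adjusted p = 0.142) for BC018473, -0.58 (SE 0.67, adjusted p = 0.667) for St6galnac2 and -1.59 (SE 0.72, adjusted p = 0.158) for St6galnac1. For St6galnac1 and St6galnac2 the KO part rests on 5 and 4 summed counts with curdlan and 14 and 11 unstimulated. Their missed threshold therefore cannot show that the responses were alike. Gm11735, with 0 counts in KO, could not show a difference in response and has no value.

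**Figure D3:**
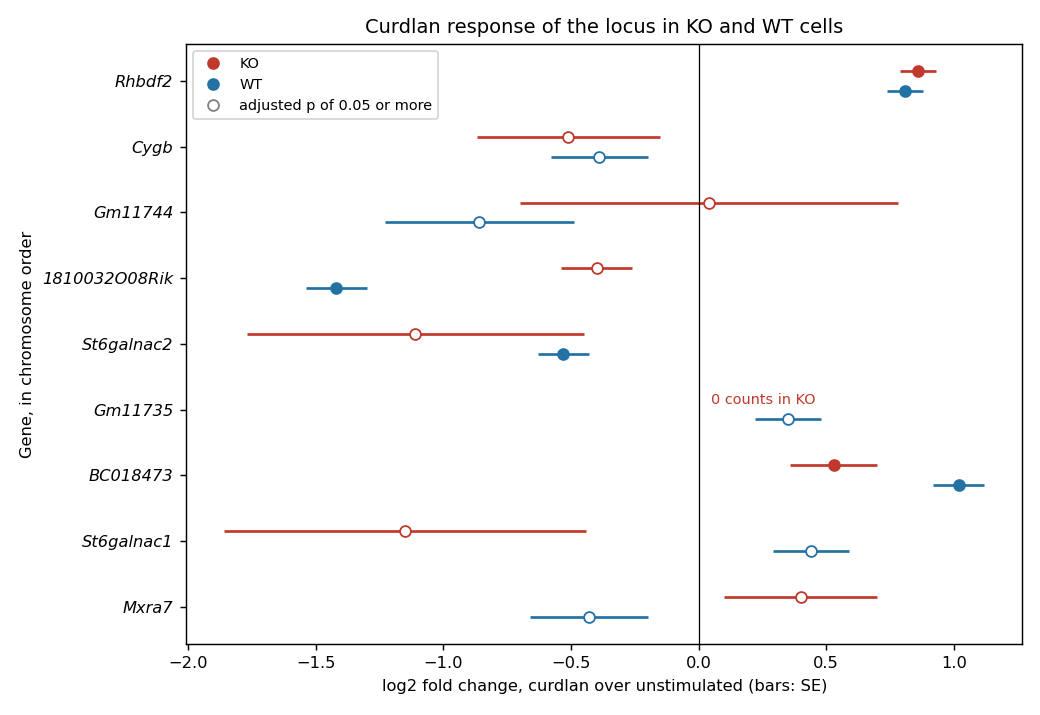
Log2 fold change of curdlan over unstimulated (horizontal axis, bars are SE) for each gene of the locus in chromosome order, KO above WT. Filled points passed an adjusted p of 0.05 in the fit without a replicate block, and Gm11735 has no KO value because it had 0 counts. Rhbdf2 is at 0.86 in KO and 0.81 in WT, and 1810032O08Rik at -0.40 in KO and -1.42 in WT.

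The other genes of sialic acid metabolism, including the sialyltransferases, the makers and cleavers of sialic acid and the Siglec receptors, had no common direction between the genotypes. Of 36 listed genes, 29 were tested, and 11 rose and 7 fell in KO with curdlan, and 11 rose and 8 fell unstimulated. Median log2 fold changes were -0.01 and 0.18, against 0.01 and -0.01 over all genes. Of all genes tested, 24.7% rose and 26.8% fell in KO with curdlan, and 21.1% rose and 23.3% fell unstimulated. With library size as the scaling, the splits were 7 higher and 10 lower with curdlan, and 8 higher and 9 lower unstimulated. Among the remaining members of the St6galnac family, St6galnac4 rose to 103 ± 16 CPM in KO, against 66.4 ± 3.7 CPM in WT with curdlan (0.63, adjusted p = 0.00107), and to 83.1 ± 13 CPM in KO, against 43.3 ± 2.6 CPM in WT unstimulated (0.94, adjusted p = 7.01e-05). St6galnac6 measured 56.6 ± 0.97 CPM in KO and 51 ± 1.8 CPM in WT with curdlan (0.15, adjusted p = 0.0356), a call lost without any 1 of 9 of the 12 libraries (adjusted p of 0.0509 to 0.112) and turned to -0.09 with library size as the scaling. Unstimulated, St6galnac6 measured 57.5 ± 0.86 CPM in KO and 48.4 ± 1.2 CPM in WT (0.25, adjusted p = 0.0028, and 0.369 with library size as the scaling). St6galnac5 was low, at 0.278 ± 0.016 CPM in KO and 0.296 ± 0.15 CPM in WT with curdlan (adjusted p = 0.878). St6galnac3 did not pass the filter, with 9 summed counts in KO and 4 in WT with curdlan and 20 and 14 unstimulated. None of these genes showed a difference of the size seen for St6galnac1 and St6galnac2, which were listed with that difference known.

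The alpha-2,3-sialyltransferase gene St3gal6 rose to 12 ± 0.97 CPM in KO, against 3.16 ± 0.46 CPM in WT with curdlan (1.92, adjusted p = 4.22e-07). St3gal1, which sialylates the galactose of core 1 O-glycans, rose by 1.17 unstimulated (SE 0.10, adjusted p = 2.53e-06) and by 0.56 with curdlan (SE 0.10, adjusted p = 0.000613). St8sia6, an alpha-2,8-sialyltransferase gene, fell by 1.82 with curdlan (SE 0.14, adjusted p = 1.06e-06) and by 1.00 unstimulated (SE 0.13, adjusted p = 5.5e-05). Of the sialic acid receptors, Siglecg rose by 1.30 with curdlan (SE 0.11, adjusted p = 1.98e-06), Siglece by 1.03 (SE 0.28, adjusted p = 0.00855) and unstimulated by 1.29 (SE 0.28, adjusted p = 0.00261), and Siglec1, a macrophage receptor, by 1.19 unstimulated (SE 0.24, adjusted p = 0.00176). These are the receptors called with a log2 fold change of at least 1 in size in either state. Below that size, Cd33 was higher in KO in both states (0.64 with curdlan and 0.80 unstimulated, adjusted p = 0.000575 and 0.000137). Siglecf was lower in both (-0.62 in each, adjusted p = 0.0407 with curdlan and 0.0474 unstimulated). The macrophage marker sums given above were also higher in KO, and their part in these receptor values was not tested.

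Genes that build O-glycans, the substrates of the locus's enzymes, were mixed. Of 32 listed genes, 24 were tested, with 4 higher and 7 lower in KO with curdlan (median -0.27) and 4 higher and 5 lower unstimulated (median -0.12). Of all genes tested, 24.7% were higher and 26.8% lower with curdlan (median 0.01), and 21.1% and 23.3% unstimulated (median -0.01). With library size as the scaling, the splits of the list were 3 higher and 15 lower with curdlan, and 4 higher and 11 lower unstimulated. Gcnt1, the core 2 branching enzyme, rose to 154 ± 27 CPM in KO, against 27.2 ± 1.5 CPM in WT with curdlan (2.50, SE 0.10, adjusted p = 1.09e-08), and to 106 ± 3.3 CPM in KO, against 29.1 ± 0.49 CPM in WT unstimulated (1.86, SE 0.10, adjusted p = 7.75e-08). Galnt9, which belongs to the family of O-glycan initiating enzymes, fell to 3.59 ± 0.51 CPM in KO, against 11.4 ± 1.8 CPM in WT with curdlan (-1.68, SE 0.16, adjusted p = 5.48e-06). The mucin genes Muc13 and Podxl were higher in KO. Muc13 measured 3.07 ± 0.74 CPM in KO and 1.18 ± 0.44 CPM in WT unstimulated (1.39, SE 0.23, adjusted p = 0.000433), and Podxl had 58 summed counts in KO and 13 in WT, a ratio of 5.73 (interval 3.1 to 11.4).

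Genes of the iRhom2 and ADAM17 pathway, to which Rhbdf2 belongs, were next compared between KO and WT. All 19 listed genes were tested, with 7 higher and 4 lower with curdlan (median 0.42) and 10 higher and 1 lower unstimulated (median 0.46). Of all genes tested, 24.7% were higher and 26.8% lower with curdlan (median 0.01), and 21.1% and 23.3% unstimulated (median -0.01). With library size as the scaling, the splits of the list were 6 higher and 4 lower with curdlan, and 10 higher and 4 lower unstimulated. Adam17 itself measured 341 ± 52 CPM in KO and 334 ± 22 CPM in WT with curdlan (0.03, SE 0.11, adjusted p = 0.832), and rose to 387 ± 20 CPM in KO, against 247 ± 18 CPM in WT unstimulated (0.65, SE 0.11, adjusted p = 0.00032). Rhbdf1, the gene of the related iRhom1, measured 1.88 ± 0.5 CPM in KO and 1.36 ± 0.21 CPM in WT with curdlan (adjusted p = 0.139). Frmd8, whose product stabilises iRhoms, measured 53.9 ± 2.6 CPM in KO and 61.9 ± 1.9 CPM in WT with curdlan (-0.20, adjusted p = 0.0427), a call lost without any 1 of 9 of the 12 libraries (adjusted p of 0.0506 to 0.111).

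Among the listed genes for inhibitors of metalloproteases, Timp3 rose to 17.5 ± 3.2 CPM in KO, against 7.02 ± 0.55 CPM in WT with curdlan (1.32, adjusted p = 1.3e-05). Timp2 rose to 123 ± 26 CPM in KO, against 36.1 ± 2.8 CPM in WT with curdlan (1.77, adjusted p = 8.17e-06). Among substrates of ADAM17, Tnf rose to 942 ± 120 CPM in KO, against 158 ± 20 CPM in WT unstimulated (2.57, SE 0.17, adjusted p = 4.4e-07). With curdlan, Tnf measured 3998 ± 870 CPM in KO and 2996 ± 490 CPM in WT (0.42, SE 0.17, adjusted p = 0.0561). Unstimulated, the TNF receptor gene Tnfrsf1b rose by 1.16 (SE 0.11, adjusted p = 5.42e-06) and Mertk, an efferocytosis receptor that is also one of the macrophage markers above, by 1.14 (SE 0.10, adjusted p = 3.82e-06). Tgfa, which encodes an EGF receptor ligand, had 68 summed counts in KO and 5 in WT unstimulated, a ratio of 17.5 (interval 7.12 to 55.5). For the globin relatives of Cygb, 2 of 8 listed genes were tested, Hbb-bs and Hbb-bt, and 0 passed in either state with edgeR, although 1 was higher in KO with curdlan at an unadjusted p under 0.05 and with DESeq2.

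**Figure D4:**
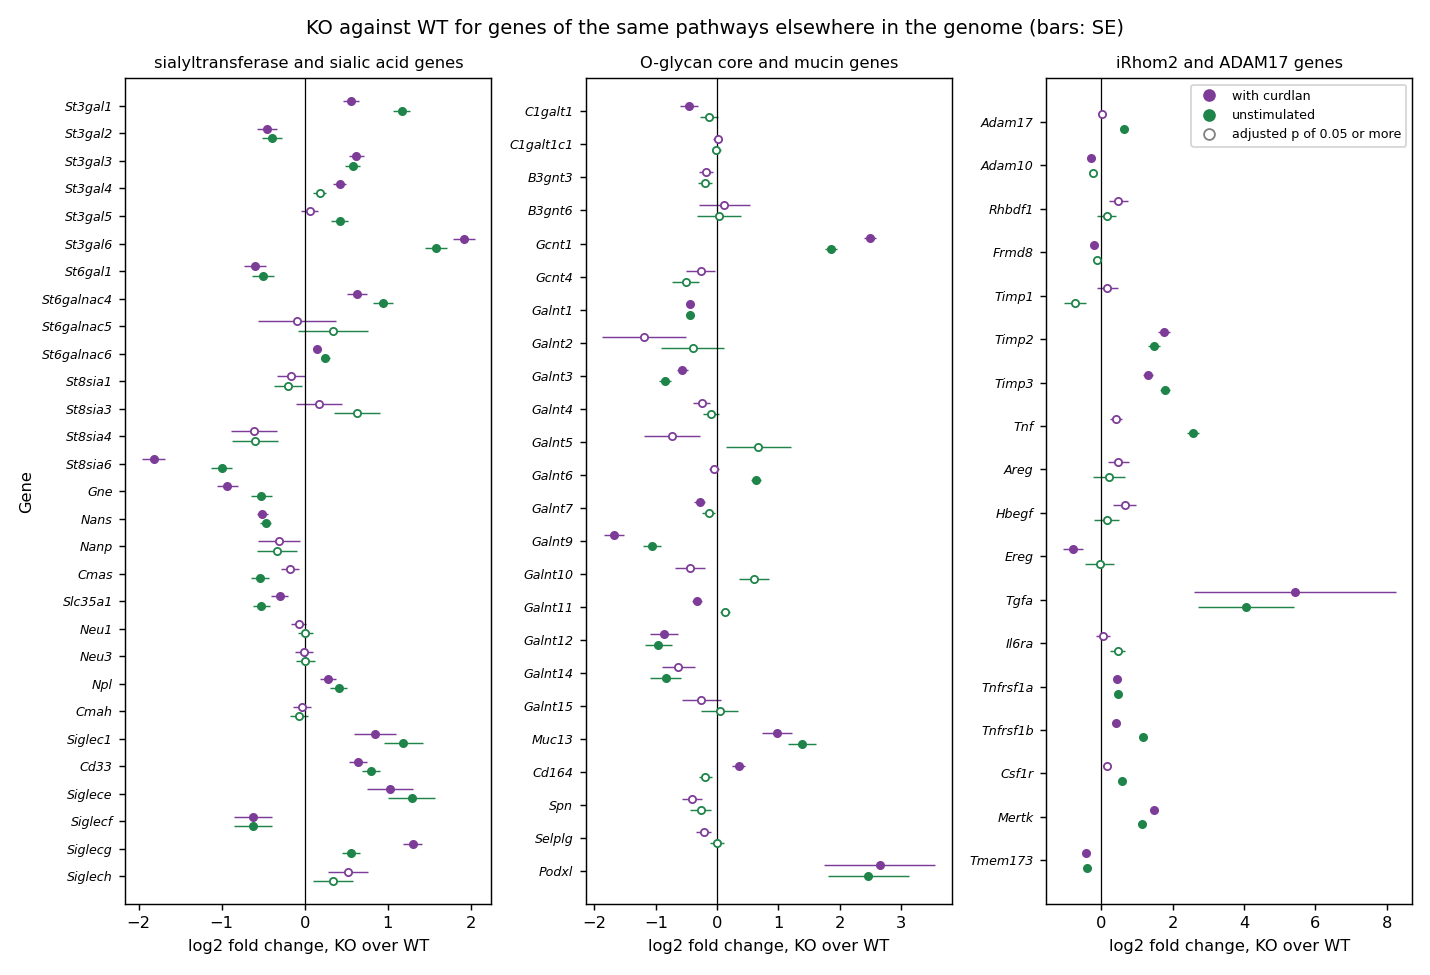
Log2 fold change of KO over WT (horizontal axes, bars are SE) for the tested genes of 3 pathway lists that are reported here, with curdlan in purple and unstimulated in green, filled where the adjusted p was under 0.05. Gcnt1 stands at 2.50 with curdlan and St3gal6 at 1.92, while St8sia6 stands at -1.82.

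Among genes outside the locus, those with the profiles most like the sialyltransferase genes lay on other chromosomes. Likeness was measured as the Euclidean distance between centred log2 CPM profiles over the 12 libraries, which share lane, depth and group, and Pearson's r is given as a description. For St6galnac1 the 6 nearest genes with a symbol outside the locus were Iglv2 (distance 1.54, r = 0.991), Igkv4-68 (1.6, r = 0.99), Cap2 (1.93, r = 0.987), Igkv8-21 (1.95, r = 0.986), Igkv8-30 (1.96, r = 0.985) and Igkv4-57 (2.01, r = 0.986). All but Cap2, an actin-regulating gene, are immunoglobulin light chain segments. For St6galnac2 they included Mzb1 (1.66, r = 0.994), an endoplasmic reticulum gene of plasma and B cells, Ighv3-6 (1.75, r = 0.994), Iglv1 (1.96, r = 0.994), Ighv6-3 (2.44, r = 0.989) and Jchain (2.97, r = 0.989), which encodes the joining chain of secreted antibodies. Inside the locus, Gm11735 lay nearest to St6galnac1 (distance 1.38, r = 0.993), nearer than any of those genes. The split of reads between these near copies is uncertain, as given above. Also inside the locus, BC018473 lay nearest to St6galnac2 (2.7, r = 0.984), farther than Mzb1, Ighv3-6, Iglv1 and Ighv6-3 and nearer than Jchain. The difference between KO and WT enters these distances. Since the genes of the locus were listed with that difference known, nothing is read from their nearness.

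A list of 15 B lineage genes, drawn up after these profiles were seen, was therefore set beside the locus. It includes genes found by likeness above, Mzb1 and Jchain among them, whose low level in KO was settled by that choice. The summed level of the 15 genes was 30.4 to 38.5 CPM in libraries labelled KO and 901 to 1280 CPM in WT libraries with curdlan, and 41.2 to 48.8 CPM in KO and 945 to 1333 CPM in WT unstimulated. In KO 3 of the 15 reached 1 CPM in each state and in WT 14. Mzb1 was at 0 in all libraries labelled KO and 1 further gene in the unstimulated ones. In each state 13 of 15 were called lower and 0 higher. Of all genes tested, 26.8% were called lower with curdlan and 23.3% unstimulated. Since the list followed from the profiles, nothing is read from that count. Mean levels of Ighm, the IgM heavy chain gene, were 14.4 CPM in KO and 693 CPM in WT with curdlan, those of Cd79a, a B cell receptor subunit gene, 0.146 and 15 CPM, and those of the B cell transcription factor gene Pax5 0.331 and 1.71 CPM. Cd22 was not lower, at 15.5 CPM in KO and 13.2 CPM in WT with curdlan and 19.2 and 16.3 CPM unstimulated. Bank1 measured 2.14 CPM in KO and 2.81 CPM in WT with curdlan, and 3.85 and 3.63 CPM unstimulated. With curdlan, 0 of the 15 genes passed in either genotype with edgeR. At an unadjusted p under 0.05 there were 1 higher and 2 lower in KO and 1 higher in WT, and DESeq2 called 2 lower in KO and 0 in WT. Per kilobase of exon, unstimulated WT libraries held 59.9 CPM of BC018473. The light chain gene Igkc stood at 504 CPM, Ighm at 370 CPM, Jchain at 30.3 CPM, Mzb1 at 16.9 CPM and Cd79a at 10.8 CPM on that scale. The rest of the list lay below Cd79a. The part of B lineage RNA in the difference between KO and WT at the locus was not tested.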

How the data were processed

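The 12 libraries were made from total RNA with a TruSeq kit that does not mark strand, per the labels' protocols. The authors deposited whole-number counts of reads per gene, not normalized, made with TopHat2, SAMtools 1.2 and featureCounts 1.4.6, per the submitters' processing notes. For the reference build, its annotation, strandedness at counting and the handling of multiply matching reads, nothing is given in the sources used here. Log2 fold changes with standard errors from the authors' deposited table of KO against WT with curdlan (DESeq2 1.8.2, per the submitters' processing notes) were copied where named. The other 24 per-library columns of the authors' comparison tables were not used. In those tables the WT curdlan columns carry other numbers than in the count table, whose numbers were kept.

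Of 37991 genes, 18981 passed edgeR's filterByExpr by group and held at least 99.9665% of counts in each library. Counts were scaled by TMM and tested in 1 fit of 4 group means with edgeR 4.0.16 under R 4.3.3 (two-sided quasi-likelihood F-test), with Benjamini-Hochberg adjustment over all genes tested and a threshold of 0.05. CPM use the scaled library sizes and are means ± SD of 3 libraries. Ratios of summed counts carry exact 95% intervals, and these and the floor of 3 counts cover counting error only. In data simulated for KO against WT with curdlan, with 18722 genes fitted, 72 of 100 genes changed 2-fold and 97 of 100 changed 4-fold were recovered, and 8 of 177 calls were false. Only 200 genes were changed there, and the spread followed the fitted trend with level alone. The measured contrast called 51.4% of genes, so these rates need not hold for it.

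Symbols come from the authors' tables, and coordinates, exon lengths and transcript sequences from GENCODE M21 (GRCm38), matched by Ensembl identifier. The listed genes, the pathway and marker lists, the tests and the alternatives were chosen with earlier results of these data known. Named genes are all listed genes, pathway genes past the threshold with a log2 fold change of at least 1 in size, the St6galnac family, Adam17, Rhbdf1 and Frmd8, the nearest tested gene and up to 4 by size on each side of the locus, and the 6 genes with the most similar profile, of which 1, like 1 gene of the pathway lists that is part of the tests and counts, is not reported here. Cd33 and Siglecf, called at a smaller size, are named as well. Alternatives were other scalings, no filter, DESeq2 1.42.0, only the groups compared, a replicate block and leaving out each library. Deviations from the group mean of libraries with the same number correlated across the states within a genotype (r of 0.287 and 0.557 for KO 2 and 5, and 0.395, 0.239 and 0.129 for WT 1, 2 and 4), so the numbers were taken to pair the states. Across genotypes r ran from -0.151 to 0.0822, and the numbers were not taken to pair them. Replicates differed by more than counting noise (chi-square per degree of freedom 9.86 to 83.9), and none were merged.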

Additional observations from a re-analysis of the deposited data

Results flagged for a closer look

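For 1 listed gene and 9 of the other genes named, the difference between KO and WT itself changed with curdlan, as tested by the interaction term of the edgeR fit. Of all genes tested, 5.21% passed that test. Most of the other genes were named for a large KO against WT difference in at least 1 state, so nothing is read from their number. Values are the curdlan response in KO minus that in WT, on the log2 scale. For 1810032O08Rik this was 1.02 (adjusted p = 0.0115). Positive differences were also found for Siglecg at 0.74 (adjusted p = 0.0183), Sphk1 at 0.69 (0.0467) and Gcnt1 at 0.64 (0.0245). Negative ones were found for Foxj1 at -2.17 (0.00883), Tnf at -2.16 (0.00195), St8sia6 at -0.81 (0.031), Tnfrsf1b at -0.75 (0.0197), Adam17 at -0.62 (0.0343) and St3gal1 at -0.61 (0.0301). The calls of 1810032O08Rik, Foxj1 and Tnf held without each library in turn, although DESeq2 gave Foxj1 (-2.19) no adjusted p. That of Sphk1 was lost with library size as the scaling (0.62, adjusted p = 0.0636). The other calls were lost without any 1 of 3 libraries for Siglecg (adjusted p up to 0.0583) and Tnfrsf1b (up to 0.062), of 5 for Gcnt1 (up to 0.0781), of 8 for Adam17 (up to 0.109), St3gal1 (up to 0.0964) and St8sia6 (up to 0.0892), and of 9 for Sphk1 (up to 0.122).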

How the results depend on the processing

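No call of the listed genes changed sign under the alternatives run, while 4 values that missed the threshold did, in 10 instances. These were the curdlan response of Gm11744 in KO (0.04, and -0.69 to -0.04 where it turned) and the difference in response for Rhbdf2 (0.05, and -0.01), Cygb (-0.13, and 0.18 to 0.20) and St6galnac2 (-0.58, and 0.38 with the replicate block). The split of the sialic acid list turned with library size as the scaling, to 7 higher and 10 lower with curdlan and 8 higher and 9 lower unstimulated, against 11 and 7, and 11 and 8. The count of listed genes changed by curdlan in cells labelled KO, 2, was 1 with only the groups compared in the fit, and 1 to 3 when each library was left out. In WT the count of 4 was 8 with only the groups compared, 9 with the replicate block and 4 to 5 when each library was left out. The call of BC018473 in KO was also lost with library size as the scaling (0.33, adjusted p = 0.139) and with only the groups compared (0.54, adjusted p = 0.105). With library size alone the O-glycan list held 18 calls with curdlan and 15 unstimulated, against 11 and 9, and the median of all genes moved to -0.24 and -0.19. That scaling also gave 1810032O08Rik -1.23 and Rhbdf2 1.00 with curdlan. Leaving out each library gave 18 to 22 and 19 to 24 calls among the neighbours with curdlan and unstimulated, 14 to 18 and 17 to 21 in the sialic acid list, 8 to 13 and 8 to 11 in the O-glycan list, and 9 to 11 and 11 to 13 in the iRhom2 list. Without each library 8 genes stayed lower in KO without overlap in both states. With the block of library numbers across genotypes, which did not pair them, the counts of neighbours were 25 and 24, and the block within genotypes changed no call of the listed genes beyond those given above. Depth limits Gm11744, Mxra7 and, in KO, St6galnac1 and St6galnac2, and group and lane cannot be told apart.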

Other observations

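Differences as large as those of the sialyltransferase genes were looked for across the genome. In both states 185 tested genes had a fitted log2 fold change between KO and WT of -6 or lower. Of these, 72 are annotated as immunoglobulin genes, 94 had no position in the annotation, and 19 were other annotated genes, among them St6galnac1, St6galnac2, Gm11735 and BC018473. These 4 were the only ones of the 185 placed on chromosome 11. The 19 also included Fcamr, at -7.28 with curdlan and -7.21 unstimulated, and Fcmr, at -6.33 and -6.26, which encode receptors for IgM and lie on chromosome 1.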
